A study of Canis lupus familiaris with 29 samples.

Results

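The genes described here are regulators of apoptosis, the programmed death of cells, measured as messenger RNA on 29 canine Affymetrix arrays. The cells were MDCK, an epithelial line from dog kidney. The set holds 42 genes of the BCL2 family, the caspases, the mitochondrial death factors, the inhibitor of apoptosis proteins (IAPs), the signalling side of the TNF and FAS receptors, and kinases and nuclear targets of the pathway. They were chosen by gene symbol. A gene was tested where a probe set annotated to it alone reached log2 5 in at least 3 of 29 arrays, and where several did, the probe set with the highest mean was taken. By that rule 25 of the 42 genes were tested, among 7052 genes tested of 15115 that have a probe set of their own.

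All arrays came from MDCK cells, and no other line or genotype was used. Cells were grown in collagen (3D) or on a transwell filter (2D). In each culture they received HGF (hepatocyte growth factor, which activates the receptor MET) together with U0126 (3 arrays in 3D and 3 in 2D) or with PD-98059 (3 arrays in 3D and 4 in 2D), HGF alone (4 arrays in each culture), or neither (control, 4 arrays in each culture). U0126 and PD-98059 are compounds of different chemical structure that inhibit MEK, the kinase that activates ERK, so the comparisons ask what HGF changed and how much of that differed when MEK was inhibited. No dose or time is given in the sources used here. Nothing states whether replicates came from separate cultures, so p-values measure only the spread among these arrays, some of which may be technical.

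Apoptosis is started in the mitochondrial pathway when BH3-only proteins outweigh the BCL2-like guardians and the effectors BAX and BAK1 open the outer mitochondrial membrane. Cytochrome c then leaves the mitochondrion and activates caspase-9, and DIABLO and HTRA2 relieve the block that IAPs place on caspases. In the receptor pathway, ligands of FAS and of TNF receptors recruit adaptors that activate caspase-8 or, with IAPs and RIPK1 in place, signal for survival through NF-kB. MDCK cells are a classic model of kidney tubule formation, in which cells in collagen form cysts and HGF makes them branch, and cell death and survival have been studied there in relation to the clearing of the lumen.

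Values are log2 levels per probe set as deposited, and differences are given on the log2 scale between group means ± the standard error (SE) of a limma fit over all 29 arrays. A gene is said to have risen or fallen where the Benjamini-Hochberg adjusted p, over 16571 probe sets, passed 0.05. A mean level under log2 5 is called dim, and a difference that starts from a dim level rests in part on background signal. The arrays report RNA of whole cultures, so fewer cells with a transcript and less of it per cell cannot be told apart. The number of arrays limits the precision of every value. Groups that did not overlap were common among all probe sets, so a lack of overlap alone does not set a member apart. Of all probe sets, 51.8% did not overlap for HGF in 3D and 54.2% in 2D. Between the cultures it was 54.3% in control and 53.5% under HGF. For U0126 it was 42.6% in 3D and 56.6% in 2D, and for PD-98059 36.5% and 49.6%.

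Replicates were least alike in 3D HGF, where the lowest correlation of a pair was 0.964, and in the other groups it was 0.987 or more. An RNA-quality index, the mean excess of 3′ over 5′ or middle control probe sets, averaged 0.838 ± 0.0476 (SD, n = 4) in 2D HGF arrays and between 1.31 and 1.93 in the other groups, and over the 3D HGF arrays it ran from 1.09 to 2.46. In 2D HGF its ACTB part was at 1.65 to 2.02, against 3.34 to 3.66 in 2D control. Its GAPDH part was at 0.333 to 0.395, against 0.477 to 0.605. The EEF1A1 part was not lower, at 0.348 to 0.460 against 0.0817 to 0.425, so the low index rested mostly on ACTB. The 3D HGF replicates 1 and 4 lay farthest from their group's mean, by 0.311 and 0.268 on average over probe sets, and results were also computed without them. With that index as a covariate, 16 members passed for HGF in 3D and 14 in 2D, against 17 and 14 without it. Of the epithelial markers with a probe set of their own, 5 of 8 had a group mean of log2 5 or more (EPCAM, KRT8, KRT18, CDH16 and CLDN4), and the cadherin CDH1 did not. None of 6 fibroblast and 5 endothelial markers did, and 1 of 6 leukocyte markers, the lysosomal protein CD68, did. The mean level of the fibroblast list lay between 2.90 and 3.04 over the groups, that of the leukocyte list between 2.69 and 3.19 and that of the endothelial list between 3.33 and 3.47.

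Of the 17 members not tested, 4 had no probe set of their own here (BOK, BIK, BBC3 and PMAIP1) and 13 stayed under the level filter. Those under the filter were the guardian BCL2L2, the BH3-only genes BAD, BMF and BCL2L11, the apoptosome scaffold APAF1, the nuclease ENDOG, the caspase blocker XIAP, the receptors FAS and TNFRSF1A, the adaptor FADD, the caspase-8 regulator CFLAR, the ubiquitin-editing enzyme TNFAIP3 and the nuclease DFFB. Their highest level in any array was between 1.92 (TNFAIP3) and 5.14 (DFFB). DFFB reached log2 5 in 2 arrays and lay just outside the filter, and CASP10 reached it in 3 arrays and lay just inside. The set as tested therefore held 14 of 26 pro-apoptotic, 5 of 9 anti-apoptotic and 6 of 7 members of mixed role, and only 1 of 7 BH3-only genes, BID.

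**Figure D1:**
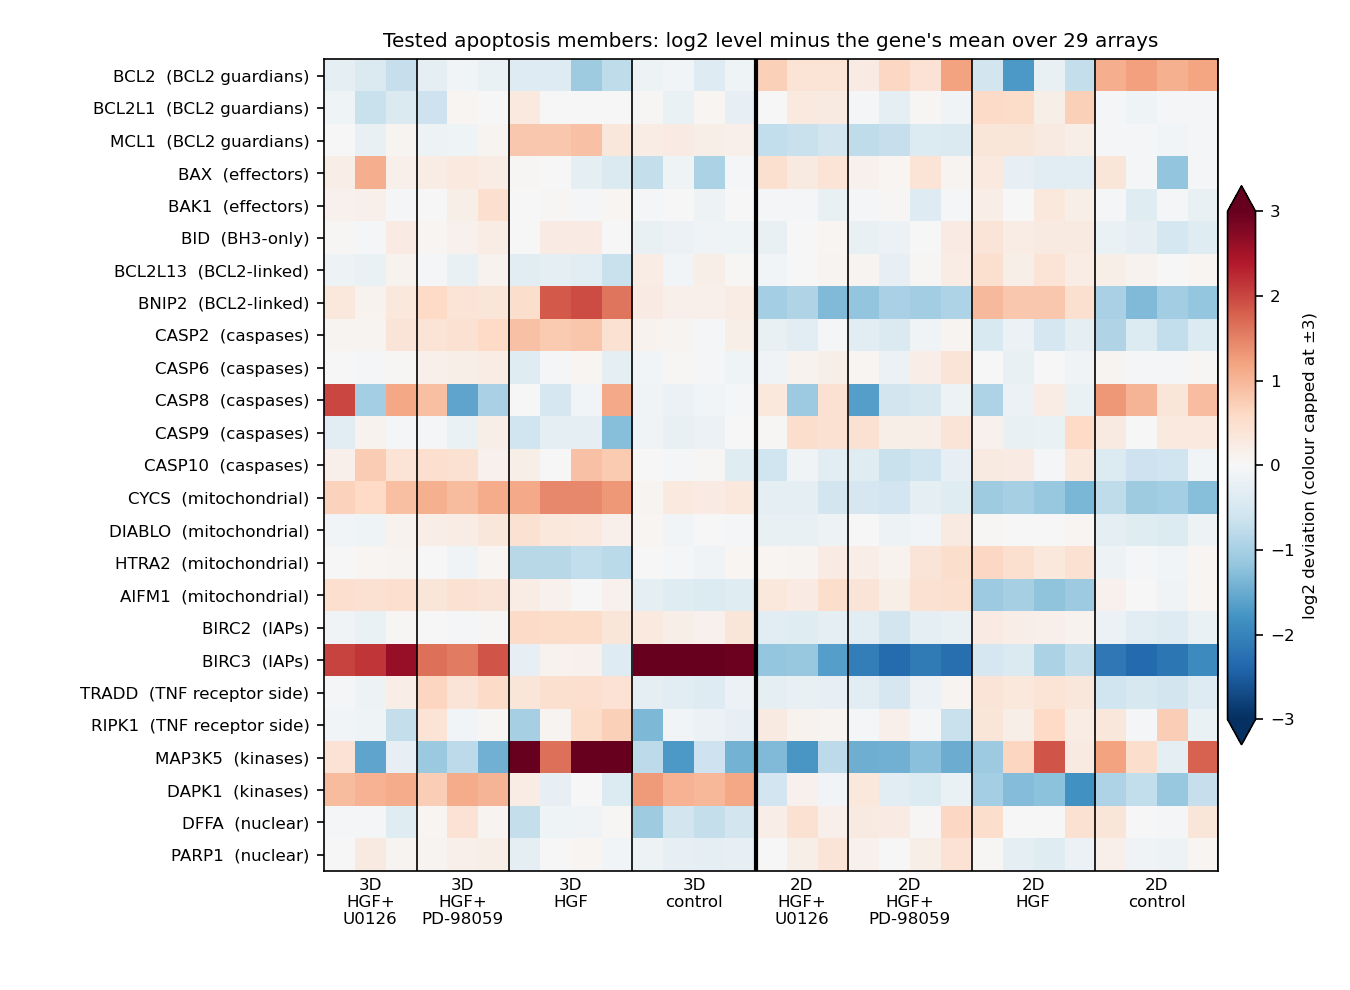
Level of each tested member in every array, as the log2 level minus the gene's mean over 29 arrays (colour, capped at ±3), with arrays as columns grouped by culture and treatment and genes as rows grouped by role. BIRC3 was high in the 3D control arrays and MAP3K5 in the 3D HGF arrays, and most other members deviated by less than 2 from their mean.

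HGF changed members of every role group in 3D except the effectors, and the changes ran in both directions. In 3D, 17 of 25 tested members passed, and 12 rose and 5 fell, beside 62.1% of all probe sets (29.4% higher, 32.6% lower). In 2D, 14 of 25 passed, and 11 rose and 3 fell, beside 55.4% of all probe sets (26.3% higher, 29.2% lower). The median difference over the 25 members was 0.28 in 3D and 0.23 in 2D, against -0.00 and -0.03 over all probe sets. By role, 7 of 14 pro-apoptotic members rose and 3 fell in 3D, and 5 rose and 2 fell in 2D. Of the 5 anti-apoptotic members, 2 rose and 1 fell in 3D, and 4 rose and 1 fell in 2D. In either direction, the share of members that passed was 68% in 3D and 56% in 2D, near the shares of all probe sets. The difference of the HGF effect between the cultures, a separate test, passed for 9 of 25 members beside 48.3% of all probe sets (22% higher, 26.3% lower), with 4 higher and 5 lower in 3D.

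**Figure D2:**
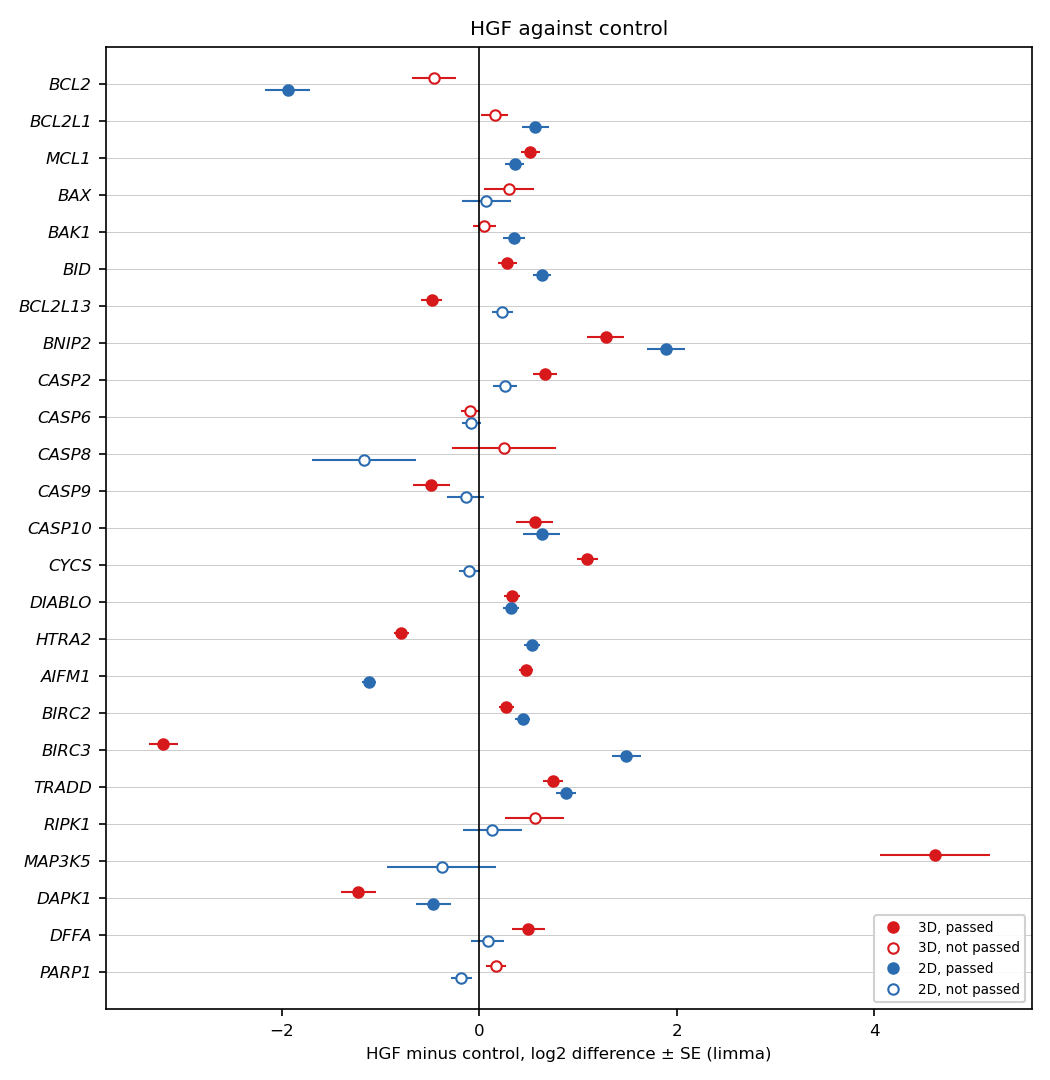
HGF minus control for each tested member in 3D (red) and 2D (blue), as log2 difference ± SE from limma; filled points passed the adjusted p threshold and open points did not. BIRC3, HTRA2 and AIFM1 passed on opposite sides of 0 in the 2 cultures, and MAP3K5 lay at 4.62 in 3D and -0.38 in 2D.

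The IAP genes are described first, and BIRC3 moved in opposite directions in the cultures. BIRC3, which encodes cIAP2, a ubiquitin ligase that keeps TNF receptor signalling on the side of survival, was at 9.13, 9.48, 9.50 and 8.97 in the 3D HGF arrays, against 12.40, 12.66, 12.52 and 12.32 in the 3D control arrays. The 2D HGF arrays were at 8.86, 8.94, 8.41 and 8.65, against 7.22, 7.03, 7.21 and 7.46 in the 2D control arrays. Every 3D HGF array lay below every 3D control array, and every 2D HGF array lay above every 2D control array. BIRC3 fell by 3.20 ± 0.15 with HGF in 3D (9.22-fold lower, limma adjusted p = 9.07e-16) and rose by 1.49 ± 0.15 in 2D (2.81-fold, adjusted p = 3.09e-09), and the difference of these effects was -4.69 ± 0.21 (adjusted p = 5.03e-15). Under HGF the mean was 9.27 in 3D and 8.72 in 2D, a difference of 0.55 ± 0.15 that passed with no overlap, against 5.25 ± 0.15 between the controls.

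The inhibitors moved BIRC3 against the direction of HGF in each culture. In 3D it was at 11.39, 11.50 and 11.98 with U0126 and at 11.01, 10.94 and 11.25 with PD-98059, all above the HGF arrays and below the control arrays. In 2D it was at 8.20, 8.24 and 7.72 with U0126 and at 7.29, 7.05, 7.24 and 7.09 with PD-98059, below every HGF array, and the PD-98059 arrays lay within the range of the control arrays. Against HGF, BIRC3 rose by 2.35 ± 0.16 with U0126 and by 1.79 ± 0.16 with PD-98059 in 3D, and fell by 0.67 ± 0.16 with U0126 and by 1.55 ± 0.15 with PD-98059 in 2D. These comparisons and those of HGF with control share the HGF arrays, so a chance deviation in those arrays moves both in opposite directions. The other 2 tested probe sets of BIRC3 were lower in level and fell with HGF in 3D as well, by 2.47 ± 0.20 and 1.30 ± 0.26. The first of them had a mean above log2 5 only in 3D control (6.06), so its fall is not independent of the level filter. The second had such a mean only in 3D control (6.27) and with U0126 in 3D (6.15). With PD-98059 in 3D these 2 probe sets differed by -0.03 and -0.17 and did not pass. With U0126 in 3D the second rose (1.18) and the first differed by 0.12, which did not pass. With HGF in 2D they differed by 0.08 and 0.57 and did not pass. Against HGF in 2D they differed by -0.03 and -0.26 with U0126, neither of which passed. With PD-98059 in 2D the second fell by 0.72 and the first differed by -0.003, which did not pass.

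BIRC2, which encodes the related cIAP1, was less variable. It was at 12.07, 12.05, 12.05 and 11.86 in the 3D HGF arrays, against 11.80, 11.68, 11.62 and 11.85 in the 3D control arrays. On filters it was at 11.74, 11.71, 11.64 and 11.60 in the HGF arrays, against 11.32, 11.19, 11.11 and 11.31 in the control arrays. The HGF arrays lay above the control arrays in each culture, in 3D by a narrow margin (11.86 against 11.85 at the closest arrays). BIRC2 rose by 0.27 ± 0.08 with HGF in 3D and by 0.44 ± 0.08 in 2D, and against HGF it fell by 0.59 ± 0.08 with U0126 and 0.52 ± 0.08 with PD-98059 in 3D, and by 0.49 ± 0.08 with U0126 and 0.52 ± 0.08 with PD-98059 in 2D. The difference of the HGF effect between the cultures was -0.17 ± 0.11 (95% interval -0.39 to 0.05, adjusted p = 0.204) and did not pass, unlike that of BIRC3. A second BIRC2 probe set, lower in level, rose with HGF by 0.44 in 3D and by 0.42 in 2D. Against HGF it fell by 0.57 with PD-98059 in 2D. It differed by -0.44 with each inhibitor in 3D and by -0.32 with U0126 in 2D, none of which passed.

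Among the BCL2 guardians, which hold effectors and BH3-only proteins in check, MCL1 rose in both cultures and BCL2 fell in 2D. MCL1, a short-lived guardian, was at 13.28, 13.28, 13.35 and 12.82 in the 3D HGF arrays, against 12.70, 12.72, 12.64 and 12.62 in the 3D control arrays. In 2D it was at 12.84, 12.84, 12.74 and 12.66 in the HGF arrays, against 12.44, 12.42, 12.40 and 12.40 in the control arrays. All HGF arrays lay above all control arrays of their culture, and the fourth 3D HGF array was lower than the other 3. MCL1 rose by 0.51 ± 0.10 in 3D and 0.36 ± 0.10 in 2D, and against HGF it fell by 0.76 ± 0.10 with U0126 and 0.78 ± 0.10 with PD-98059 in 3D, and by 0.95 ± 0.10 with U0126 and 0.87 ± 0.10 with PD-98059 in 2D. A second MCL1 probe set, lower in level, differed by -0.07 with HGF in 3D and by -0.25 in 2D, neither of which passed, and with the mean of both probe sets the rise in 3D was 0.22 and no longer passed (adjusted p = 0.0903).

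BCL2, the founding guardian of the family, was at 5.36, 4.19, 5.69 and 5.21 in the 2D HGF arrays, against 6.999, 7.15, 6.98 and 7.09 in the 2D control arrays. In 3D it was at 5.53, 5.52, 4.85 and 5.16 in the HGF arrays, against 5.77, 5.83, 5.52 and 5.78 in the control arrays. In 2D the groups did not overlap, the second HGF array was the lowest, and the 2D HGF arrays reached down to the range of the 3D arrays. BCL2 fell by 1.94 ± 0.23 with HGF in 2D (3.85-fold lower, adjusted p = 5.07e-08), and differed by -0.46 ± 0.23 in 3D, which did not pass (adjusted p = 0.0809). The difference of the effects was 1.48 ± 0.32 and passed. With U0126 in 2D it was at 6.62, 6.32 and 6.32 and with PD-98059 at 6.17, 6.54, 6.35 and 7.13, and against HGF it rose by 1.31 ± 0.24 with U0126 and 1.44 ± 0.23 with PD-98059. Of these arrays, the fourth PD-98059 array alone reached the range of the 2D control arrays. The third tested guardian, BCL2L1, which encodes BCL-XL, rose by 0.57 ± 0.14 with HGF in 2D, where it was at 9.76, 9.74, 9.36 and 9.89 in the HGF arrays, against 9.14, 9.07, 9.12 and 9.15 in the control arrays. In 3D it differed by 0.15 ± 0.14, which did not pass, and the difference of the effects did not pass either (-0.41 ± 0.20, adjusted p = 0.0861). Against HGF it fell by 0.48 ± 0.15 with U0126 in 3D and by 0.60 ± 0.14 with PD-98059 in 2D.

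The tested effectors and BH3-only genes, which promote opening of the outer membrane, moved less. BAX differed by 0.30 ± 0.25 with HGF in 3D and by 0.07 ± 0.25 in 2D, and like RIPK1 and CASP8 it passed in none of the 13 comparisons by limma. BAK1, the other effector, rose by 0.35 ± 0.11 with HGF in 2D and fell by 0.30 ± 0.11 with PD-98059 there, while its difference in 3D was 0.05 ± 0.11 with HGF. BID, which links caspase-8 to mitochondria, was at 11.75, 11.98, 11.98 and 11.74 in the 3D HGF arrays, against 11.53, 11.57, 11.62 and 11.61 in the 3D control arrays. The 2D HGF arrays were at 12.14, 11.97, 12.02 and 12.01, against 11.55, 11.46, 11.21 and 11.38 in the 2D control arrays. The groups did not overlap in either culture. BID rose by 0.28 ± 0.09 in 3D and by 0.63 ± 0.09 in 2D, and the difference of the effects passed (-0.35 ± 0.13, adjusted p = 0.0315). Against HGF it fell by 0.35 ± 0.10 with U0126 and 0.33 ± 0.09 with PD-98059 in 2D, and in 3D it differed by -0.04 and 0.02, which did not pass.

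BNIP2, a protein found by its binding to BCL2 and to an adenovirus protein, rose in both cultures. It was at 8.61, 9.93, 10.05 and 9.68 in the 3D HGF arrays, against 8.34, 8.25, 8.25 and 8.32 in the 3D control arrays. On filters it was at 9.06, 8.89, 8.90 and 8.57 in the HGF arrays, against 7.11, 6.77, 7.04 and 6.94 in the control arrays. No HGF array overlapped the controls, and the first 3D HGF array was the closest to them. BNIP2 rose by 1.28 ± 0.19 with HGF in 3D and by 1.89 ± 0.19 in 2D, and the difference did not pass (-0.62 ± 0.27, adjusted p = 0.0625). The inhibitor arrays lay at 8.41, 8.19 and 8.41 with U0126 and at 8.68, 8.51 and 8.46 with PD-98059 in 3D, near the 3D control arrays. All PD-98059 arrays in 3D lay above the control arrays, and the first of them (8.68) overlapped the lowest HGF array (8.61). In 2D they lay at 7.06, 7.18 and 6.75 with U0126 and at 6.90, 7.11, 7.05 and 7.16 with PD-98059, near the 2D control arrays. Against HGF, BNIP2 fell by 1.23 ± 0.21 with U0126 and 1.02 ± 0.21 with PD-98059 in 3D, and by 1.86 ± 0.21 with U0126 and 1.80 ± 0.19 with PD-98059 in 2D. With the RNA-quality index as covariate the rise with HGF was 1.09 in 3D and 1.45 in 2D. BCL2L13, a mitochondrial protein of the family, fell with HGF in 3D (-0.48 ± 0.11), differed by 0.23 ± 0.11 in 2D, which did not pass, and had a difference of effects that passed (-0.71 ± 0.15).

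**Figure D3:**
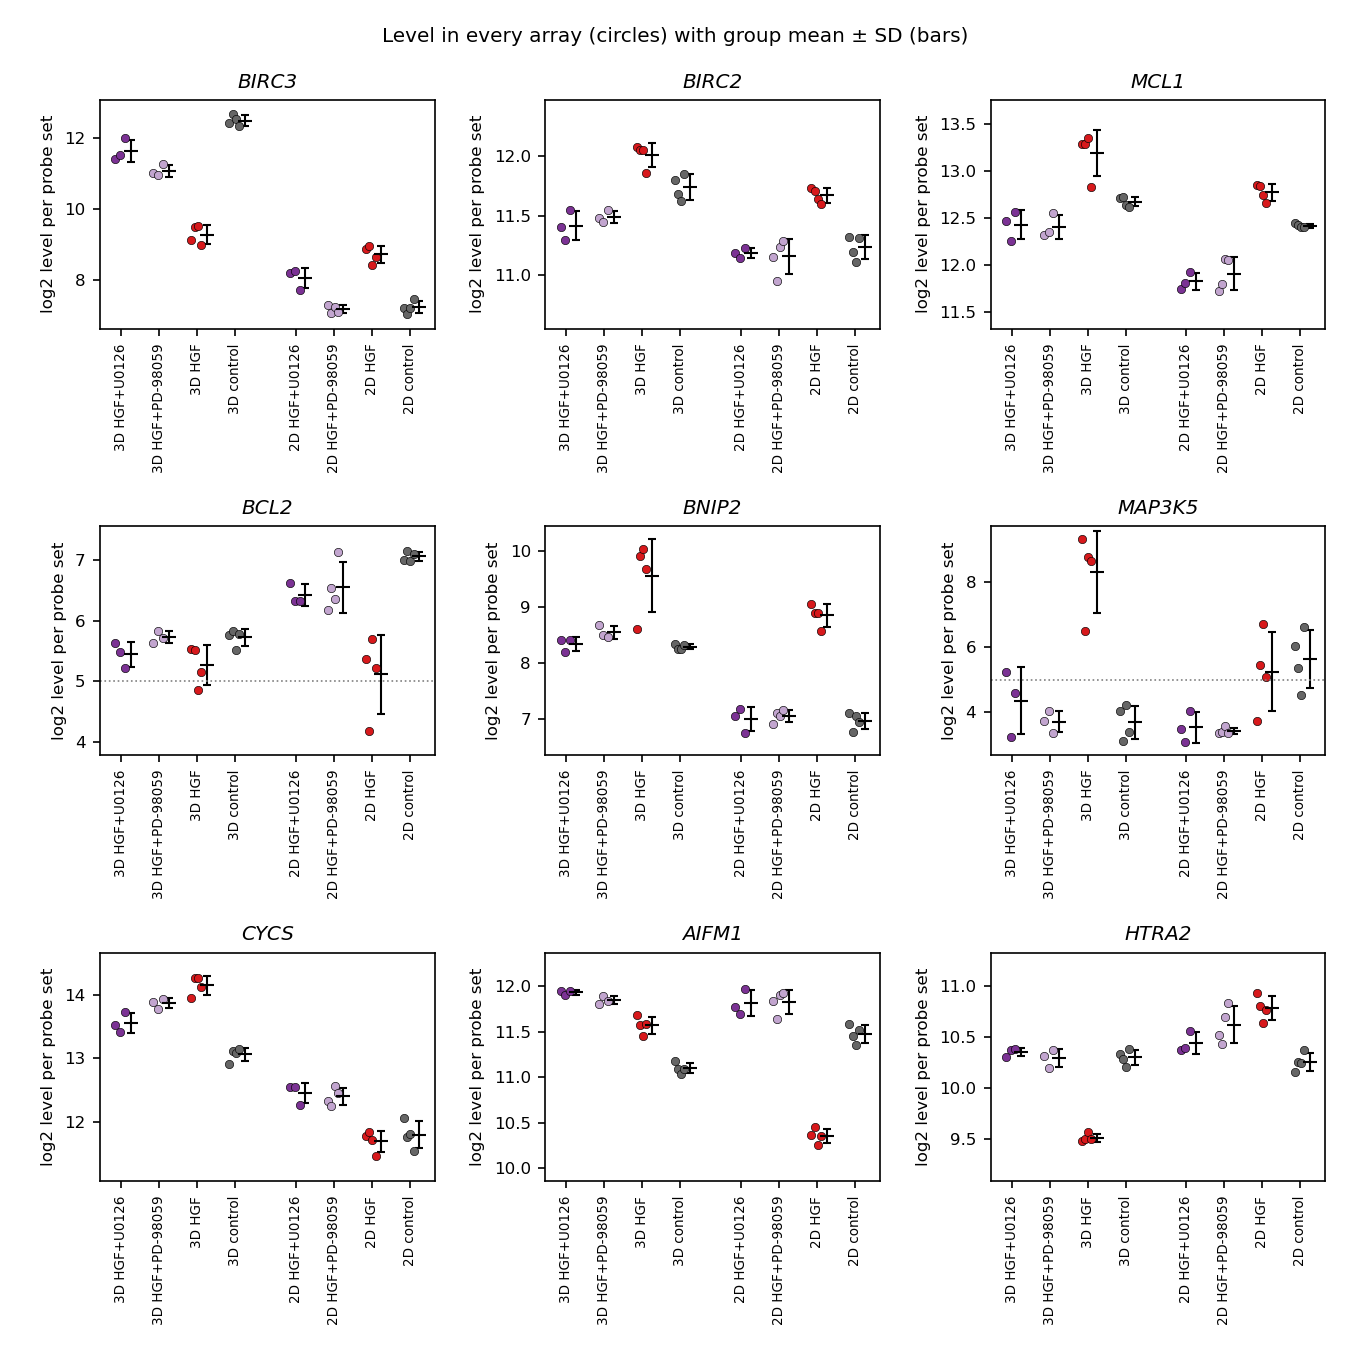
Log2 level per probe set of 9 members in every array (circles, with horizontal offset for visibility), with the group mean ± SD beside them and the dim level of log2 5 as a dotted line where it falls in range; the vertical scale differs between panels. The BIRC3 arrays of 3D HGF sit at 8.97 to 9.50 and those of 3D control at 12.32 to 12.66, and the AIFM1 arrays of 2D HGF sit at 10.26 to 10.45, below all others.

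The mitochondrial factors, which act once the outer membrane is open, each followed a pattern of its own. CYCS, which encodes cytochrome c of the respiratory chain and of the apoptosome, was at 13.96, 14.27, 14.27 and 14.13 in the 3D HGF arrays, against 12.91, 13.12, 13.08 and 13.15 in the 3D control arrays. In 2D it was at 11.77, 11.83, 11.70 and 11.46 in the HGF arrays, against 12.06, 11.76, 11.81 and 11.54 in the control arrays. The 3D HGF arrays were the highest of all 29 arrays, and the 2D groups overlapped. CYCS rose by 1.09 ± 0.11 with HGF in 3D and differed by -0.10 ± 0.11 in 2D, and the difference of the effects passed (1.19 ± 0.15, adjusted p = 3.43e-07). Against HGF it fell by 0.60 ± 0.11 with U0126 and by 0.29 ± 0.11 with PD-98059 in 3D, the second lost in 11 of 19 alternatives, and rose by 0.76 ± 0.11 with U0126 and 0.71 ± 0.11 with PD-98059 in 2D. Its second probe set gave 1.67 for HGF in 3D, which passed, and -0.02 in 2D.

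AIFM1, a mitochondrial flavoprotein that can carry death signals to the nucleus, was at 11.68, 11.57, 11.45 and 11.58 in the 3D HGF arrays, against 11.18, 11.10, 11.04 and 11.09 in the 3D control arrays. The 2D HGF arrays were at 10.37, 10.45, 10.26 and 10.36, against 11.58, 11.45, 11.35 and 11.52 in the 2D control arrays. The 2D HGF arrays lay below all 25 other arrays. AIFM1 rose by 0.47 ± 0.07 in 3D and fell by 1.12 ± 0.07 in 2D (2.17-fold lower, adjusted p = 8.38e-13), and the difference of the effects was 1.59 ± 0.10. With the inhibitors AIFM1 rose in both cultures. Against HGF it rose by 0.36 ± 0.08 with U0126 and 0.28 ± 0.08 with PD-98059 in 3D, and by 1.46 ± 0.08 with U0126 and 1.47 ± 0.07 with PD-98059 in 2D. The inhibitor arrays lay between 11.81 and 11.95 in 3D and between 11.64 and 11.97 in 2D.

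HTRA2, a mitochondrial serine protease that cleaves IAPs, ran the other way. It was at 9.48, 9.50, 9.57 and 9.50 in the 3D HGF arrays, against 10.33, 10.28, 10.21 and 10.39 in the 3D control arrays. On filters it was at 10.93, 10.81, 10.64 and 10.77 in the HGF arrays, against 10.16, 10.26, 10.24 and 10.38 in the control arrays. The 3D HGF arrays lay below all 25 other arrays. HTRA2 fell by 0.79 ± 0.08 in 3D and rose by 0.53 ± 0.08 in 2D, and the difference of the effects was -1.32 ± 0.11 (adjusted p = 6.75e-10). Against HGF it rose by 0.84 ± 0.09 with U0126 and 0.78 ± 0.09 with PD-98059 in 3D, with arrays between 10.20 and 10.39, and in 2D it fell by 0.35 ± 0.09 with U0126 and differed by -0.17 ± 0.08 with PD-98059, which did not pass. DIABLO, the IAP antagonist also called SMAC, rose by 0.33 ± 0.08 in 3D and by 0.32 ± 0.08 in 2D, and its 2 other tested probe sets rose too in 3D (0.80 and 0.70).

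The caspases, the proteases of the pathway, showed smaller or noisier differences. CASP2, an initiator caspase, was at 10.87, 10.78, 10.82 and 10.45 in the 3D HGF arrays, against 10.10, 10.08, 9.94 and 10.17 in the 3D control arrays. It rose by 0.66 ± 0.12 with HGF in 3D with no overlap, differed by 0.26 ± 0.12 in 2D, which did not pass, and fell against HGF by 0.56 ± 0.13 with U0126 in 3D. Its other tested probe sets, lower in level, also rose with HGF in 3D (0.29 and 0.95). With HGF in 2D 1 of them rose (0.42) and the other differed by 0.33, which did not pass. With U0126 in 3D they differed by -0.01 and -0.29, neither of which passed. CASP9, the caspase of the apoptosome, was at 5.58, 5.90, 5.89 and 4.91 in the 3D HGF arrays, against 6.08, 5.97, 6.01 and 6.18 in the 3D control arrays. The fourth 3D HGF array was the lowest. CASP9 fell by 0.49 ± 0.19 (adjusted p = 0.0263), a call lost in 8 of 20 alternatives. Over all 20 the limma adjusted p was between 0.0114 and 0.476. Without 3D HGF replicate 4 the value was -0.27 and without 3D HGF replicates 1 and 4 it was -0.17. CASP10, a receptor-linked initiator in human cells, was dim in all 8 groups, with means between 3.86 and 4.78, and rose by 0.56 ± 0.19 with HGF in 3D and by 0.63 ± 0.19 in 2D. With the RNA-quality index as covariate its value in 2D was 0.40 and no longer passed (adjusted p = 0.129). CASP10 passed the level filter only through 3D HGF replicates 3 and 4 (5.20 and 5.11) and 3D HGF+U0126 replicate 2 (5.10). Its rise with HGF in 3D, counted among the members that rose, is therefore not independent of that filter. CASP6, an executioner caspase, differed by -0.09 ± 0.10 and -0.08 ± 0.10 with HGF and was between 12.36 and 13.10 in all arrays. CASP8, the initiator of the receptor pathway, varied widely among replicates. Its 3D U0126 arrays were at 8.14, 5.12 and 7.30, and with an SD of up to 1.56 within a group no difference passed, the HGF difference in 2D being -1.17 ± 0.53 (adjusted p = 0.0617).

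On the side of the TNF receptor, TRADD, the adaptor that binds the receptor's death domain, was at 9.49, 9.61, 9.63 and 9.55 in the 3D HGF arrays, against 8.84, 8.79, 8.73 and 8.95 in the 3D control arrays. In 2D it was at 9.52, 9.45, 9.54 and 9.47 in the HGF arrays, against 8.52, 8.63, 8.58 and 8.73 in the control arrays. The HGF arrays lay above the control arrays in both cultures and at like levels in each. TRADD rose by 0.74 ± 0.10 in 3D and by 0.88 ± 0.10 in 2D, and its second probe set by 0.82 and 1.24. Against HGF it fell by 0.62 ± 0.11 with U0126 and 0.60 ± 0.10 with PD-98059 in 2D, and in 3D it fell by 0.44 ± 0.11 with U0126 and differed by 0.09 ± 0.11 with PD-98059, which did not pass. RIPK1, the kinase next in that complex, differed by 0.56 ± 0.30 with HGF in 3D and by 0.13 ± 0.30 in 2D, and neither passed.

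Of the 2 death-linked kinases, MAP3K5, the stress kinase ASK1 that activates JNK and p38, was at 9.31, 6.48, 8.78 and 8.64 in the 3D HGF arrays, against 4.03, 3.11, 4.21 and 3.40 in the 3D control arrays. The 2D HGF arrays were at 3.73, 5.46, 6.71 and 5.09, against 6.02, 5.36, 4.54 and 6.61 in the 2D control arrays. The 3D HGF arrays lay above the 3D control arrays, all of which were dim, with the second array the lowest of the HGF arrays, and the 2D groups overlapped. MAP3K5 rose by 4.62 ± 0.56 in 3D and differed by -0.38 ± 0.56 in 2D, which did not pass, and the difference of the effects was 4.999 ± 0.78 (adjusted p = 9.74e-06). In 3D it was at 5.25, 3.23 and 4.58 with U0126 and at 3.72, 4.04 and 3.37 with PD-98059, and the falls against HGF were -3.95 ± 0.60 with U0126 and -4.59 ± 0.60 with PD-98059. In 2D it was at 3.49, 3.09 and 4.04 with U0126 and at 3.37, 3.38, 3.56 and 3.35 with PD-98059, and the falls were -1.71 ± 0.60 with U0126 and -1.83 ± 0.56 with PD-98059. All 4 inhibitor groups had a dim mean, as had the 3D control group, so the sizes of these falls rest on background signal.

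DAPK1, a calcium and calmodulin dependent death-associated kinase, fell with HGF and rose with each inhibitor in each culture. It was at 7.37, 6.90, 7.15 and 6.75 in the 3D HGF arrays, against 8.42, 8.19, 8.16 and 8.31 in the 3D control arrays. On filters it was at 6.14, 5.86, 5.92 and 5.33 in the HGF arrays, against 6.23, 6.42, 6.02 and 6.46 in the control arrays, and these groups overlapped. DAPK1 fell by 1.23 ± 0.18 in 3D and by 0.47 ± 0.18 in 2D, and the difference of the effects passed (-0.76 ± 0.25, adjusted p = 0.0146). With U0126 it was at 8.10, 8.18 and 8.28 in 3D and at 6.57, 7.28 and 7.08 in 2D. With PD-98059 it was at 7.89, 8.26 and 8.18 in 3D and at 7.46, 6.84, 6.74 and 6.96 in 2D. All inhibitor arrays lay above the HGF arrays of their culture. Against HGF, DAPK1 rose by 1.15 ± 0.19 with U0126 and 1.07 ± 0.19 with PD-98059 in 3D, and by 1.16 ± 0.19 with U0126 and 1.19 ± 0.18 with PD-98059 in 2D. A second DAPK1 probe set stayed near log2 5 and differed by 0.02 with HGF in 3D and by 0.00 in 2D, neither of which passed.

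The nuclear members are DFFA, the inhibitor and chaperone of the DNA-cutting nuclease, and PARP1, a DNA repair enzyme cleaved by caspases. DFFA rose by 0.50 ± 0.17 with HGF in 3D, where its arrays overlapped those of the control, and differed by 0.08 ± 0.17 in 2D, which did not pass. PARP1 differed by 0.17 ± 0.10 with HGF in 3D and -0.18 ± 0.10 in 2D, neither of which passed, and rose against HGF by 0.38 ± 0.11 with U0126 and 0.37 ± 0.10 with PD-98059 in 2D. Its second probe set, lower in level, rose by 1.02 with HGF in 3D.

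The inhibitor comparisons ask which members differed when MEK was inhibited in HGF-treated cells. With U0126, 15 of 25 members passed in 3D, 6 higher and 9 lower, beside 49.3% of all probe sets (25.4% higher, 23.8% lower). With PD-98059 in 3D, 12 passed, 7 higher and 5 lower, beside 42% of all probe sets (26.6% higher, 15.4% lower). In 2D, 16 passed with U0126, 5 higher and 11 lower, beside 50.1% (25.8% higher, 24.3% lower), and 16 with PD-98059, 5 higher and 11 lower, beside 52.4% (27.6% higher, 24.9% lower). The median difference over the members was 0.08 with U0126 and 0.09 with PD-98059 in 3D, and -0.21 and -0.29 in 2D, where the medians over all probe sets were 0.02 and 0.03. Of the anti-apoptotic members in 2D, 3 of 5 fell with U0126 and 4 of 5 with PD-98059, and BCL2 rose with each. In 3D, 3 of 5 fell with U0126 and 2 of 5 with PD-98059, and BIRC3 rose with each. The inhibitors' effects differed between the cultures for 8 members with U0126, 3 higher and 5 lower in 3D, beside 36.5% of all probe sets (19.9% higher, 16.6% lower), and for 10 with PD-98059, 6 higher and 4 lower, beside 34.2% (22% higher, 12.3% lower). BCL2, BCL2L13, CYCS, HTRA2, AIFM1, BIRC3 and MAP3K5 passed in both of these tests, which share the HGF arrays. For MAP3K5 the difference with U0126 (-2.24 ± 0.85) was lost in 14 of 26 alternatives.

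**Figure D4:**
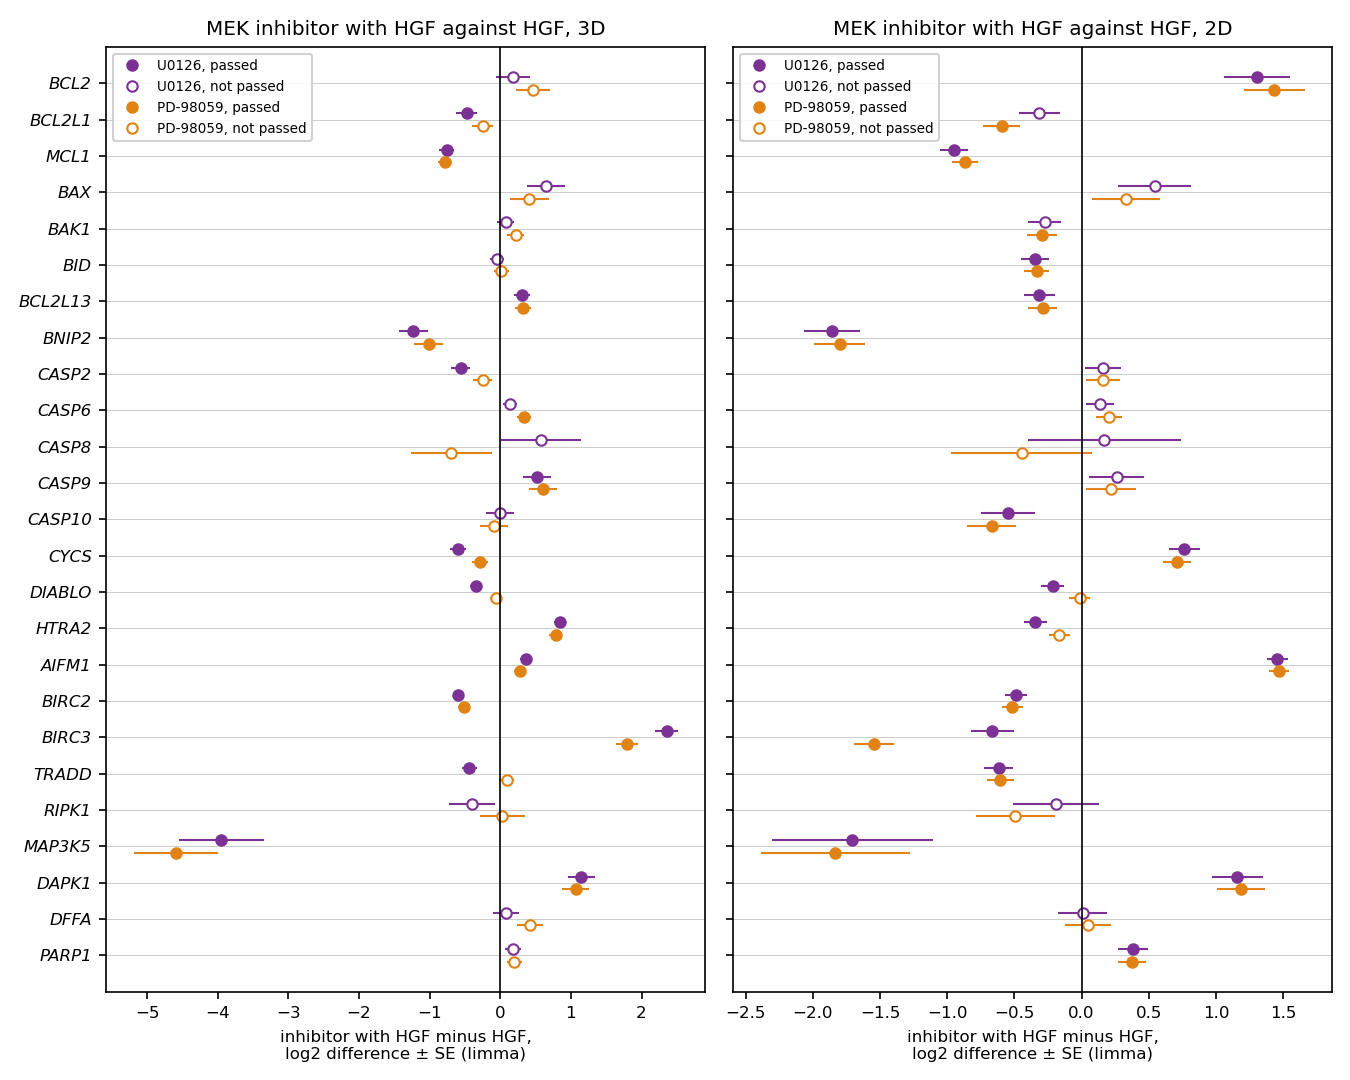
U0126 (purple) and PD-98059 (orange), each with HGF, minus HGF alone for each tested member in 3D (left) and 2D (right), as log2 difference ± SE from limma; filled points passed the adjusted p threshold and the horizontal scales differ. The compounds lay close to each other for most members, and BIRC3 was higher with U0126 than with PD-98059 in each culture.

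The compounds were also compared directly for the 25 members in each culture, with p-values adjusted over all probe sets; whether their doses were matched is not stated. In 3D, 3 members passed, 1 higher and 2 lower with U0126, beside 11.8% of all probe sets (2.99% higher, 8.82% lower). BIRC3 was higher with U0126 by 0.56 ± 0.17 (95% interval 0.21 to 0.91, adjusted p = 0.033), TRADD was lower by 0.53 ± 0.11 (adjusted p = 0.00268) and DIABLO was lower by 0.28 ± 0.09 (adjusted p = 0.044). The arrays of the compounds did not overlap for any of these 3 genes, nor for 11 of 25 members in all and 31.5% of all probe sets. The BIRC3 call was lost in 7 of 17 alternatives and the DIABLO call in 11 of 17. Over all 17 the limma adjusted p of BIRC3 was between 0.00186 and 0.166. In 2D, 1 member passed, beside 1.62% of all probe sets (0.845% higher, 0.778% lower), and that was BIRC3, higher with U0126 by 0.88 ± 0.16 (95% interval 0.55 to 1.21, adjusted p = 0.00214). With the mean of its tested probe sets the BIRC3 difference in 2D was 0.44 and did not pass. The other members did not pass, which does not show that the compounds act alike. In 2D the difference for MCL1 was -0.08 (95% interval -0.30 to 0.13), for AIFM1 -0.01 (-0.17 to 0.15), for BNIP2 -0.06 (-0.48 to 0.37), and for MAP3K5 0.13 with a wide interval of -1.11 to 1.36.

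Collagen and filter cultures differed before any HGF. Of 25 members, 12 passed in 3D against 2D control, 8 higher and 4 lower, beside 52.3% of all probe sets (23.6% higher, 28.7% lower). BIRC3 was the member with the widest gap, at 12.32 to 12.66 in the 3D arrays and 7.03 to 7.46 in the 2D arrays. Its other probe sets were higher in 3D by 2.76 ± 0.20 and 2.08 ± 0.26. Both were dim in 2D control (means 3.30 and 4.19), so these differences rest in part on background signal. The first had a mean above the dim level only in 3D control (6.06), so its difference is not independent of the level filter. DAPK1 was higher in 3D by 1.99 ± 0.18, BNIP2 by 1.33 ± 0.19, CYCS by 1.27 ± 0.11, CASP2 by 0.69 ± 0.12 and BIRC2 by 0.51 ± 0.08, none with overlap. Of the other tested CASP2 probe sets, 1 was higher in 3D by 0.76 and the other differed by -0.01, which did not pass. MAP3K5 was lower in 3D by 1.95 ± 0.56, to a dim level, BCL2 by 1.33 ± 0.23, DFFA by 0.89 ± 0.17 and AIFM1 by 0.38 ± 0.07, again with no overlap. DIABLO was higher in 3D by 0.29 ± 0.08, but a second probe set was lower by 0.32 ± 0.12 and passed too, so its direction is not settled. That was the only opposite pair of calls among the 10 tested members with more than 1 tested probe set, over the 13 comparisons.

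Under HGF, 15 members passed between the cultures, 10 higher and 5 lower in 3D, beside 64.6% of all probe sets (28.9% higher, 35.7% lower). CYCS was higher in 3D HGF arrays by 2.47 ± 0.11, AIFM1 by 1.22 ± 0.07, DAPK1 by 1.23 ± 0.18 and CASP2 by 1.09 ± 0.12, with no overlap. HTRA2 was lower by 1.28 ± 0.08, BCL2L13 by 0.71 ± 0.11 and CASP9 by 0.70 ± 0.19, with no overlap. The CASP9 call was lost in 3 of 20 alternatives, and without 3D HGF replicates 1 and 4 its value was -0.37 (adjusted p = 0.0895). MAP3K5 was higher by 3.05 ± 0.56, with its lowest 3D HGF array (6.48) under the highest 2D HGF array (6.71). BCL2 differed by 0.15 ± 0.23 between the HGF groups and did not pass, where it did between the controls.

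The pro- and anti-apoptotic members were set against each other in an index, the mean deviation from the gene's mean over 29 arrays of the 14 tested pro-apoptotic members minus that of the 5 tested anti-apoptotic members. It is a description, with no test. The index was 0.0129 ± 0.0262 with U0126 (SD, n = 3), -0.0631 ± 0.172 with PD-98059 (n = 3), 0.238 ± 0.194 with HGF (n = 4) and -0.736 ± 0.0487 in control (n = 4) in 3D. In 2D it was 0.207 ± 0.141 with U0126 (n = 3), 0.353 ± 0.0213 with PD-98059 (n = 4), -0.101 ± 0.139 with HGF (n = 4) and 0.128 ± 0.138 in control (n = 4). The 3D control arrays, at -0.794 to -0.677, lay below all 25 other arrays, and the anti-apoptotic mean of that group was 0.652, against -0.0835 for its pro-apoptotic mean. HGF was above control in 3D with no overlap, and in 2D its arrays, at -0.286 to 0.00839, overlapped those of the control at -0.0702 to 0.239.

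This order rested on BIRC3 and MAP3K5. Without them, an alternative chosen after seeing the data, the index in 3D was 0.572 with U0126, 0.399 with PD-98059, -0.0533 with HGF and -0.0407 in control, and in 2D it was 0.0480, 0.0284, -0.288 and -0.411 in the same groups. HGF and control in 3D then overlapped, and the U0126 and PD-98059 arrays in 3D, at 0.461 to 0.634 and 0.244 to 0.622, lay above the HGF arrays, at -0.218 to 0.0870.

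**Figure D5:**
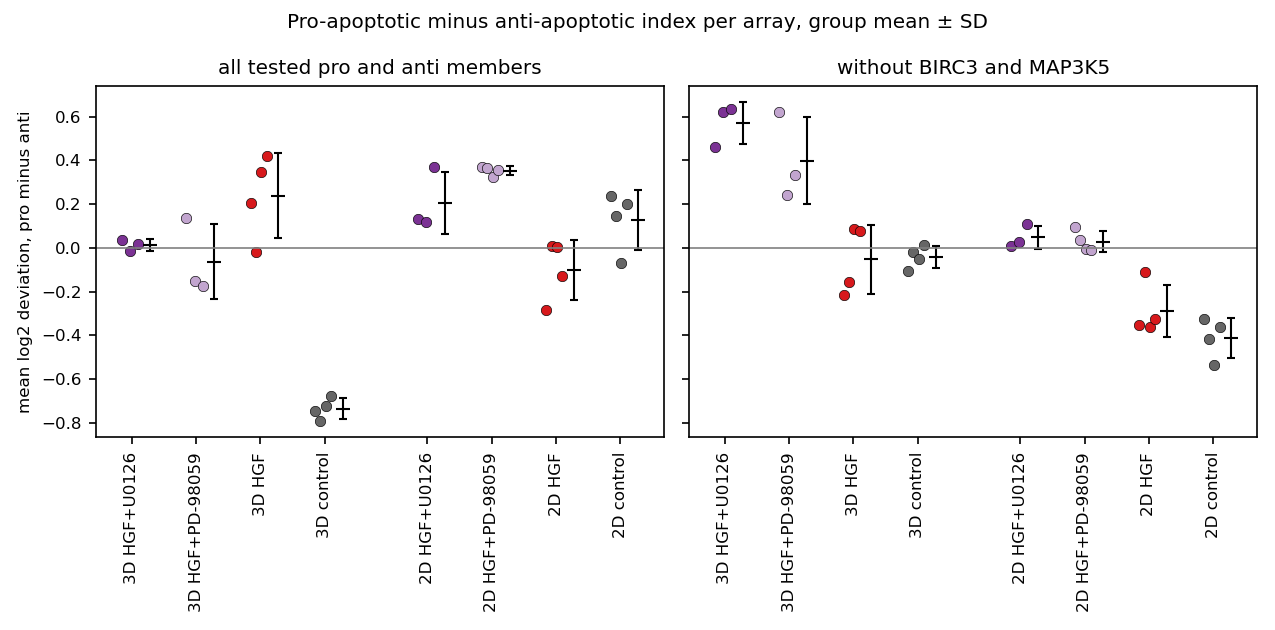
Pro-apoptotic minus anti-apoptotic index (mean log2 deviation) in every array, with group mean ± SD, from all tested members of these classes (left) and without BIRC3 and MAP3K5 (right). On the left the 3D control arrays sit near -0.736 and below all others, and on the right they sit near -0.0407, within the range of the 3D HGF arrays.

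Other genes of the apoptosis machinery were described from a list of 53, of which 33 were tested. With HGF, 15 rose and 10 fell in 3D, beside 29.4% of all probe sets higher and 32.6% lower, and 18 rose and 3 fell in 2D, beside 26.3% higher and 29.2% lower. The list's median difference was 0.17 and 0.34, against -0.00 and -0.03 over all probe sets. BCL2A1, a guardian induced by NF-kB, rose by 2.24 ± 0.12 with HGF in 2D, and fell against HGF by 2.99 ± 0.13 with U0126 and 2.90 ± 0.12 with PD-98059 there. STK4, the kinase MST1 that caspases activate by cleavage, rose by 2.94 ± 0.36 with HGF in 3D and fell by 2.32 ± 0.39 with U0126 and 2.67 ± 0.39 with PD-98059. PDCD4, a translation inhibitor, fell by 3.25 ± 0.17 in 3D and by 0.86 ± 0.17 in 2D, and TNFSF10, the death ligand TRAIL, fell by 2.59 ± 0.19 in 3D. With the inhibitors in 2D, 2 of the 33 rose and 15 fell with U0126, beside 25.8% of all probe sets higher and 24.3% lower, and 2 rose and 17 fell with PD-98059, beside 27.6% higher and 24.9% lower. In 3D, 7 rose and 12 fell with U0126, beside 25.4% higher and 23.8% lower, and 8 rose and 8 fell with PD-98059, beside 26.6% higher and 15.4% lower. Between the controls, 18 were higher and 2 lower in 3D, beside 23.6% and 28.7% of all probe sets, the lower ones including BNIP3L (-2.25 ± 0.19), a mitophagy receptor of the BH3-only kind.

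BIRC3 is a known target of NF-kB, and 10 of 20 other listed genes of that pathway were tested. With HGF in 3D, 1 rose and 8 fell, beside 29.4% of all probe sets higher and 32.6% lower. Against HGF in 3D, 6 rose and 1 fell with U0126, beside 25.4% higher and 23.8% lower, and 5 rose and 1 fell with PD-98059, beside 26.6% higher and 15.4% lower. NFKBIA, the inhibitor that NF-kB itself induces, fell by 2.39 ± 0.09 with HGF in 3D, rose against HGF by 2.02 ± 0.10 with U0126 and 1.33 ± 0.10 with PD-98059, and was higher by 2.12 ± 0.09 in 3D than in 2D control. In 2D, 1 of the 10 passed with HGF, beside 55.4% of all probe sets, the adhesion molecule ICAM1, which rose by 0.84 ± 0.15, and NFKBIA differed by 0.15 ± 0.09 and did not pass. Between the controls 8 of the 10 were higher in 3D, beside 23.6% of all probe sets. The list was chosen with earlier results of these data known, and whether NF-kB acted on BIRC3 here was not tested. Of 21 listed p53 targets 12 were tested, and with HGF 4 rose and 2 fell in 3D and 3 rose and 3 fell in 2D, beside 62.1% of all probe sets that passed in 3D and 55.4% in 2D. TIGAR, a regulator of glycolysis, rose by 1.85 ± 0.12 with HGF in 3D and fell by 0.71 ± 0.12 in 2D. SESN1, a stress-response gene, fell by 1.05 ± 0.13 in 3D and by 1.11 ± 0.13 in 2D.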

How the data were processed

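Total RNA was purified with Qiagen RNeasy columns and labelled with biotin, per the labels' protocols, and hybridised to Affymetrix canine arrays. The deposited table holds 1 log2 value per probe set and array, and the submitters' processing notes name MAS5, Affymetrix Expression Console 1.1, GCRMA and Partek 6.6 with no role or order, so which of them made the deposited log2 values was not settled here. The scale was kept as deposited. Of 43035 probe sets, 111 control probe sets were left out and 16571 reached log2 5 in at least 3 arrays and were tested. The platform annotation gave 29264 probe sets 1 gene symbol and 439 several, and 13332 were unlisted and stayed unnamed. Of the 25 probe sets taken for the tested members, 11 carry the suffix _s_at for shared probes. Whether these match other transcripts was not examined. Each array is 1 sample, and groups were taken from the labels.

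A linear model with 8 group means was fitted to all 29 arrays with limma 3.58.1 in R 4.3.3 (moderated variances with a mean trend, 21 residual degrees of freedom), with 13 comparisons and Benjamini-Hochberg adjustment over the 16571 probe sets in each. The scripts were tested on simulated data. The members and all gene lists were chosen with earlier results of these data known. Members are named where groups did not overlap, taking the largest in each direction: up to 6 for the HGF comparisons in 3D and in 2D and for the controls compared between cultures, up to 4 for the HGF effect difference and for either inhibitor in 3D and 2D, and up to 3 elsewhere and from each list of other genes, and the remaining members are given to account for the whole set. Other tested probe sets of a member are described beside it for some comparisons and not for all, and those of CASP6 are not given. Alternatives changed the filter, the variance model, the groups fitted, the normalization, array weights, a fold minimum, the probe set summary, an RNA-quality covariate, a replicate block and the arrays included. Replicate numbers shared across groups were not used to pair the arrays in the main fit. The correlation of deviations between same-numbered arrays of 2 groups lay between -0.296 and 0.409, and no comparison had every pair above 0.1. With 3 or 4 pairs per comparison these values cannot exclude a pairing. Titles and descriptions of the 2D HGF+U0126 arrays number the replicates differently, and the title numbers were used. No sequences are printed.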

Additional observations from a re-analysis of the deposited data

Results flagged for a closer look

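In groups of 4 arrays, 9 of 125 member and group combinations had a highest or lowest array that stood apart from the other 3, where chance alone gives about 1 in 20. In 3D HGF, replicate 4 was low for MCL1 (12.82, nearest array 13.28), BCL2L13 (9.75, nearest 10.09) and BIRC2 (11.86, nearest 12.05). In the same group replicate 1 was high for BCL2L1 (9.47, nearest 9.18) and replicate 3 was high for HTRA2 (9.57, nearest 9.50). RIPK1 was low in 3D control replicate 1 (5.63, nearest 6.73) and BAX was high in 2D HGF replicate 1 (7.78, nearest 7.25). CASP9 was low in 2D control replicate 2 (6.20, nearest 6.45), and MAP3K5 was high in 2D HGF+PD-98059 replicate 3 (3.56, nearest 3.38), at a dim level.

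The effect of a treatment differed between 3D and 2D, by the test of the difference itself in limma, for the members that follow, each given as the effect in 3D less that in 2D. For HGF the differences were 1.48 for BCL2, -0.35 for BID, -0.71 for BCL2L13, 1.19 for CYCS, -1.32 for HTRA2, 1.59 for AIFM1, -4.69 for BIRC3, 4.999 for MAP3K5 and -0.76 for DAPK1. For U0126 they were -1.13 for BCL2, 0.62 for BCL2L13, -0.72 for CASP2, -1.37 for CYCS, 1.19 for HTRA2, -1.10 for AIFM1, 3.02 for BIRC3 and -2.24 for MAP3K5. For PD-98059 they were -0.97 for BCL2, 0.51 for BAK1, 0.62 for BCL2L13, 0.79 for BNIP2, -0.99 for CYCS, 0.95 for HTRA2, -1.19 for AIFM1, 3.34 for BIRC3, 0.69 for TRADD and -2.76 for MAP3K5. The HGF arrays enter all 3 tests. The other tested probe sets of CASP2 had differences of -0.15 and -0.57 for U0126, neither of which passed. The BNIP2 difference for PD-98059 was lost in 9 of 27 alternatives, and was 0.38 with the RNA-quality index as covariate (adjusted p = 0.232) and 0.37 without 3D HGF replicates 1 and 4 (adjusted p = 0.11).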

How the results depend on the processing

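Of 1892 alternative values for 91 named differences, 1782 kept their direction and call, 110 kept their direction and lost the call, and none reversed. Leaving out 1 array lost a call in 31 cases, all within 7 results: CASP9 with HGF and with PD-98059 in 3D, CYCS with PD-98059 in 3D, BIRC3 and DIABLO for U0126 against PD-98059 in 3D, and the difference between cultures of BNIP2 with PD-98059 and of MAP3K5 with U0126. Without 3D HGF replicates 1 and 4 the MAP3K5 difference between cultures with PD-98059 was -2.09 (adjusted p = 0.0706).

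Counts of members called by limma moved by over 1.5 times in these cases. With no filter, which adds 13 members for 38 in all, 3D against 2D HGF gave 23 of 38 and U0126 against PD-98059 in 3D gave 1. With the compared groups fitted alone, PD-98059 in 3D gave 6 and U0126 against PD-98059 gave 1 in 3D and 0 in 2D (2 at an unadjusted p under 0.05). Quantile normalization gave 14 for the HGF effect difference, and array weights gave 6 for U0126 against PD-98059 in 3D. A 2-fold minimum gave 5 for HGF in 3D, 4 for HGF in 2D, 6 for 3D against 2D control and 6 for 3D against 2D HGF. It gave 4 for U0126 in 3D, 4 for PD-98059 in 3D, 5 for U0126 in 2D and 6 for PD-98059 in 2D. It gave 3 for the PD-98059 difference between cultures, and 0 for U0126 against PD-98059 in each culture. For U0126 against PD-98059, 6 members in 3D and 3 in 2D had an unadjusted limma p under 0.05 with no fold minimum. Averaging the probe sets of a gene gave 0 for U0126 against PD-98059 in 2D (3 at an unadjusted p under 0.05). The cause was tested for none of these beyond the construction of the alternative.

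With 1 array left out at a time, the counts were 14 to 18 for HGF in 3D, 13 to 15 for HGF in 2D, 11 to 13 for 3D against 2D control, 14 to 15 for 3D against 2D HGF, 8 to 11 for the HGF effect difference, 13 to 16 for U0126 and 9 to 12 for PD-98059 in 3D, 11 to 16 for U0126 and 14 to 17 for PD-98059 in 2D, 7 to 9 and 9 to 12 for their differences between cultures, and 1 to 3 in 3D and 1 in 2D for U0126 against PD-98059, where 1 was without 3D HGF+PD-98059 replicate 2.

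With the replicate number as a block, the counts were 17 for HGF in 3D, 15 for HGF in 2D, 12 and 15 for 3D against 2D in control and HGF, 9 for the HGF effect difference, 16 for U0126 and 13 for PD-98059 in 3D, and 14 for U0126 and 16 for PD-98059 in 2D, all within 1.5 times of the counts without it.

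The pro- minus anti-apoptotic index moved as follows. It was -0.438 in 3D control and 0.250 in 2D HGF+PD-98059 with no filter, and 0.377 in 2D HGF+PD-98059 with a filter at log2 6. With probe sets averaged per gene it was 0.196 with U0126, 0.190 with PD-98059 and -0.641 in control in 3D, and 0.0503 with U0126, 0.145 with PD-98059 and -0.0638 in control in 2D. Without BIRC3 and MAP3K5, chosen after seeing the data, it was 0.572, 0.399, -0.0533 and -0.0407 in 3D and 0.0480, 0.0284, -0.288 and -0.411 in 2D with U0126, PD-98059, HGF and in control. Leaving out 1 array it lay in 3D at 0.00214 to 0.0263 with U0126, -0.157 to -0.0139 with PD-98059, 0.193 to 0.324 with HGF and -0.780 to -0.745 in control, and in 2D at 0.139 to 0.256 with U0126, 0.361 to 0.375 with PD-98059, -0.138 to -0.0500 with HGF and 0.0995 to 0.191 in control.

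Groups of 3 or 4 arrays, unknown doses, dim levels of MAP3K5 and CASP10, and the 17 members not tested limit what these values show.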
